A study of Caenorhabditis elegans with 2 samples.

Results

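The *ceh* genes are the numbered homeobox genes of *Caenorhabditis elegans*. They were taken as every gene whose WormBase symbol is ceh- followed by a number, found by matching the WormBase identifiers of the deposited table to symbols. This gave 63 genes of the 46904 in the table. All 63 are annotated as protein-coding. RefSeq lists the name *ceh-44* for a gene that the symbol table calls *cone-1*, and *ceh-85* for a pseudogene with no symbol there. Both stayed outside the 63 and are described separately. The study compared whole N2 worms, the standard wild-type strain, on a lawn of *L. plantarum* with a trace (0.2 µl) of live *E. coli*. In the *pdxH* library the trace was an *E. coli* strain that lacks *pdxH*, the gene for the enzyme that makes the active form of vitamin B6, and in the wild-type library it was the parent strain BW25113. Each diet has 1 RNA-seq library, so no difference below has a replicate check and no p-value is given.

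Homeobox genes encode transcription factors that bind DNA through a homeodomain. In worms they fix the identity of single neurons, muscles, epidermal cells and body regions, and many act as terminal selectors, factors that switch on and hold the genes of a mature cell type. Homeodomain proteins fall into classes by their sequence. Hox proteins mark positions along the body, TALE proteins of the PBC group are their DNA-binding partners, and POU, LIM, sine oculis, CUT, paired-like and NK-like proteins carry further domains or sequence features of their own. A single *ceh* gene is often active in only a few cells of the animal, so its transcript is scarce in RNA of whole worms.

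The libraries held 46372171 reads with the *pdxH* mutant and 40707752 with wild-type *E. coli*, so an equal level gives 1.14 times as many reads in the *pdxH* library. Reads per gene were recovered from the deposited values as whole numbers. Differences are log2 ratios of the *pdxH* value to the wild-type value, after a pseudocount of 1 was added to both, and each has a 95% interval that covers counting error only. Intervals and folds come from the reads scaled to the library totals, with no pseudocount. A gene was called higher or lower when this ratio was at least 0.5 in size (1.41-fold) and the interval left out 0. Calls were limited to genes whose reads in both libraries added up to 20 or more. These were 15777 genes of the table and 51 of the 63 *ceh* genes, and the median log2 ratio of the 15777 was 0.01. In RNA of whole worms, fewer cells of a type and less RNA per cell cannot be told apart.

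The remaining 12 *ceh* genes had too few reads for a call. No read was found for *ceh-75*, *ceh-81* and *ceh-84* in either library. A count of 0 allows up to 3 reads per library. The genes *ceh-7*, *ceh-76*, *ceh-82*, *ceh-87* and *ceh-90* had between 1 and 4 reads in both libraries together, and at most 3 in each. The other 4 were slightly above this limit. *ceh-49*, a CUT gene, had 4 reads with the *pdxH* mutant and 1 with wild-type *E. coli*. *ceh-51*, which acts in the mesoderm of the embryo, had 7 and 3, *ceh-28*, which acts in the pharyngeal neuron M4, had 8 and 4, and the NK-like gene *ceh-5* had 10 and 7, in the same order of libraries. Nothing can be said about a difference in these 12 genes at this depth. Low counts were common on the left arm of chromosome II, where *ceh-81*, *ceh-82*, *ceh-83*, *ceh-84*, *ceh-86* and *ceh-87* lie, and only *ceh-83* and *ceh-86* of these reached 20 reads.

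The reads of all 63 genes added up to 26559 (95% Poisson interval 26241 to 26880) with the *pdxH* mutant and to 21380 (21094 to 21669) with wild-type *E. coli*. Scaled to the library total they were 573 and 525 RPM, a log2 ratio of 0.12 (95% counting interval 0.10 to 0.15). The *ceh* genes as a whole thus took a slightly larger share of the *pdxH* library. Levels are compared between genes as reads per kilobase of exon, scaled to the library total (RPKM). The highest level was that of *ceh-20*, the Pbx-type partner of Hox proteins, with 47.4 RPKM on the *pdxH* diet and 40.8 on the wild-type diet. It was followed by the Hox gene *ceh-13* with 36.6 and 30.8 RPKM, the CUT gene *ceh-38* with 30.2 and 29.2, and the POU gene *ceh-18* with 25.7 and 25.05, the *pdxH* library first. Only these 4 and *ceh-37*, *ceh-32* and *ceh-100* had at least 10 RPKM in both libraries. The 10 genes with the highest levels held 61.2% of the summed RPKM of all 63 in the *pdxH* library and 62.5% in the wild-type library. At the other end, 6 of the 51 genes with enough reads for a call were below 1 RPKM in both libraries. Across the 51 genes the log2 RPKM of both libraries had a Pearson correlation of 0.969, a description over genes that share these libraries.

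**Figure D1:**
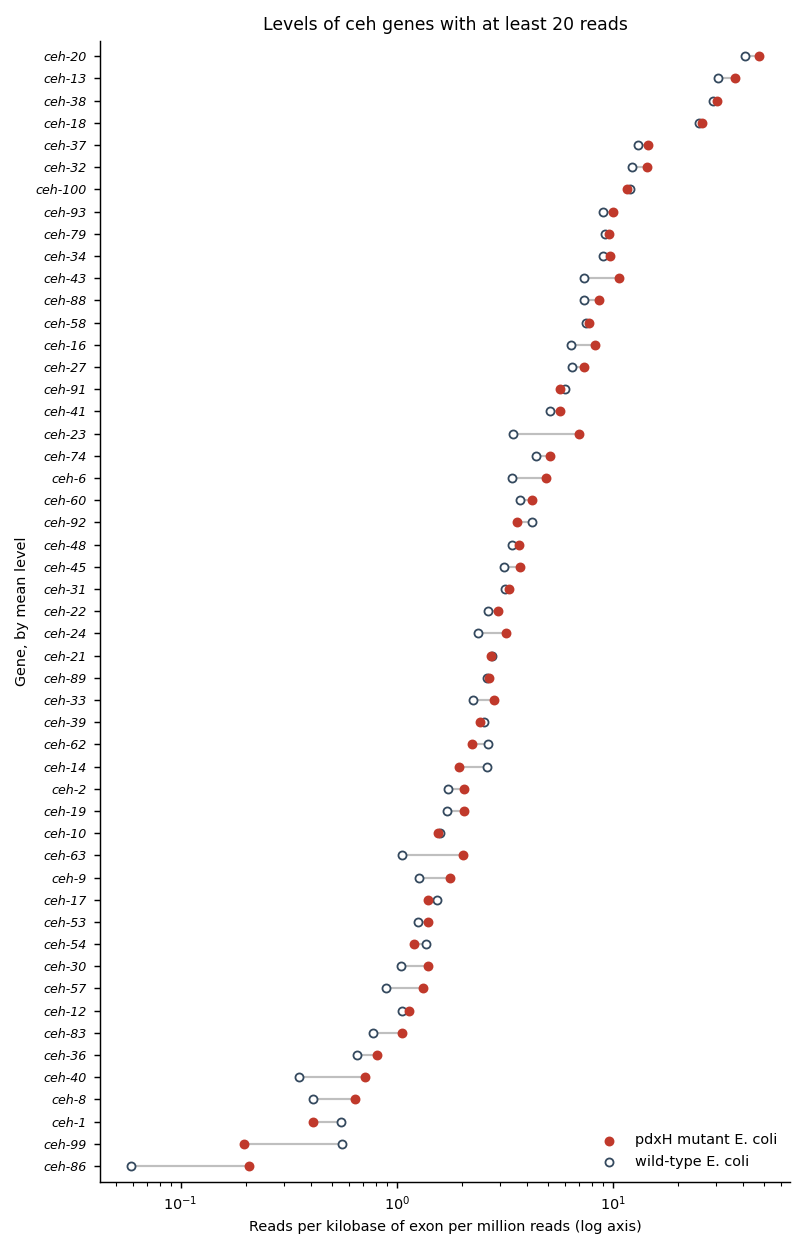
Level of each *ceh* gene with at least 20 reads, in RPKM on a log axis, with the *pdxH* library as filled and the wild-type library as open points. Levels ran from 47.4 RPKM for *ceh-20* on the *pdxH* diet to 0.059 RPKM for *ceh-86* on the wild-type diet, and *ceh-23*, *ceh-63*, *ceh-40*, *ceh-86* and *ceh-99* had the widest gaps between libraries.

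The *ceh* ratios lay more often above 0 than below, with most counting intervals holding 0. Of the 51 genes with at least 20 reads, 39 had a log2 ratio above 0 and 12 below, and the median ratio was 0.16, with 0.03 and 0.35 as the quartiles. Among all 15777 genes 52.3% were above 0. This lean varied with the genes used and, for centring on a neuronal list, with the scaling. All 15 of the 51 genes that share exon sequence with another gene were above 0, and without them 24 of 36 were, with a median of 0.10. Centring on the median of all genes gave a *ceh* median of 0.148, and TMM scaling between the libraries gave 0.147. Against the median of 19 pan-neuronal genes, 0.19, a reference chosen after the data were seen, the *ceh* median was -0.03. The counting interval lay wholly above 0 for 14 *ceh* genes and wholly below 0 for 3, and it held 0 for the other 34. Under the rule on size and interval, 7 of the 51 were called higher, against a background of 5.20% of all genes, and 1 was called lower, against a background of 8.83%. The genes called higher were *ceh-6*, *ceh-23*, *ceh-40*, *ceh-43*, *ceh-57*, *ceh-63* and *ceh-86*, and the gene called lower was *ceh-99*. None of the 11 genes with 1000 or more reads was called, beside 161 higher and 515 lower of all 8239 genes of that depth. Their ratios spanned -0.08 to 0.25 and had a median of 0.15, beside a median of 0.01 for all genes of that depth. The 31 genes with at least 100 but under 1000 reads had a median of 0.19, beside 0.03 for all such genes. They held 5 of the calls, all higher, beside 441 higher and 658 lower of all 4988 such genes. The 9 genes with 20 to 99 reads had a median of 0.15, beside 0.09 for all such genes. They held 2 higher calls and 1 lower, beside 218 and 220 of all 2550 such genes.

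**Figure D2:**
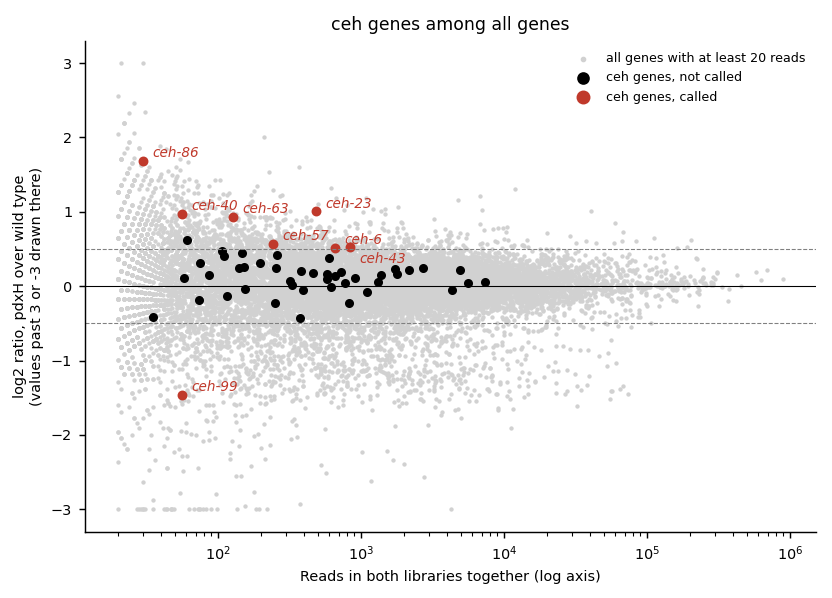
Log2 ratio, *pdxH* over wild type, against the reads of both libraries together on a log axis, for all 15777 genes with at least 20 reads (grey), the 43 *ceh* genes that were not called (black) and the 8 that were (red). Dashed lines mark 0.5 and -0.5, and the 11 *ceh* genes with 1000 or more reads all lie between them.

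Among the genes called higher, *ceh-23* combined a large ratio with many reads. It had 337 reads with the *pdxH* mutant against 147 with wild-type *E. coli*, a 2.01-fold higher level and a log2 ratio of 1.005 (0.725 to 1.298). *ceh-23* is expressed in head neurons and, in the AIY interneuron, depends on the homeobox genes *ttx-3* and *ceh-10*. These regulators, named here after their values were seen, had lower ratios. For *ceh-10*, 81 reads with the *pdxH* mutant stood against 73 with wild-type *E. coli*, a ratio of -0.04 (-0.51 to 0.44). For *ttx-3*, 51 reads stood against 34, a ratio of 0.39 (-0.26 to 1.07), and both intervals held 0. The interval of *ceh-10* lay below that of *ceh-23*, and that of *ttx-3* overlapped it.

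*ceh-43*, the worm Distal-less gene, which is needed in the anterior epidermis and for dopaminergic neurons, had 523 reads on the *pdxH* diet against 317 on the wild-type diet, a log2 ratio of 0.53 (0.33 to 0.74). *ceh-6*, a POU gene with a known function in the excretory cell, had 408 reads against 250, a log2 ratio of 0.52 (0.29 to 0.75). Both lie just past the size of 0.5. The nearest genes below it were *ceh-9*, with 65 reads against 41 and a log2 ratio of 0.47 (-0.11 to 1.08), and *ceh-83*, with 90 against 58 and a ratio of 0.44 (-0.05 to 0.95).

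*ceh-63*, which is expressed in the tail interneuron DVC, had 88 reads with the *pdxH* mutant against 40 with wild-type *E. coli*, a log2 ratio of 0.94 (0.39 to 1.53). Its exons overlap those of *tag-52* on the same strand by 18 bases, and *tag-52* had 5682 reads against 4380. *ceh-57*, for which no role is given here, had 153 reads against 90, a log2 ratio of 0.57 (0.19 to 0.97). *ceh-40*, a Pbx-type gene that acts together with *ceh-20*, had 39 reads against 17, a log2 ratio of 0.98 (0.15 to 1.92). It overlaps *xtr-2* on the opposite strand by 59 bases, which had 49 reads against 38. *ceh-86* had 24 reads against 6, a log2 ratio of 1.68 (0.48 to 3.39). The calls of *ceh-40* and *ceh-86* thus rest on 56 and 30 reads.

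The called genes lie on 4 chromosomes, with positions given on ce11 (WBcel235) as the span of the annotated gene. *ceh-6* is at I, 8498112-8502604, *ceh-43* at III, 4446638-4449943, *ceh-40* at X, 12318126-12320777 and *ceh-63* at X, 3672274-3674058, all on the minus strand. *ceh-86* is at II, 2426366-2432072 on the minus strand, and *ceh-99* is at II, 12519981-12524478 on the plus strand.

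The gene called lower, *ceh-99*, was also scarce. It had 16 reads with the *pdxH* mutant against 40 with wild-type *E. coli*, a log2 ratio of -1.46 (-2.45 to -0.64) and, without the pseudocount, a 2.85-fold lower level. *ceh-8*, the paired-like gene of the Rax type, was past the size of 0.5 with 39 reads against 22 and a log2 ratio of 0.62, but its interval of -0.15 to 1.46 held 0.

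**Figure D3:**
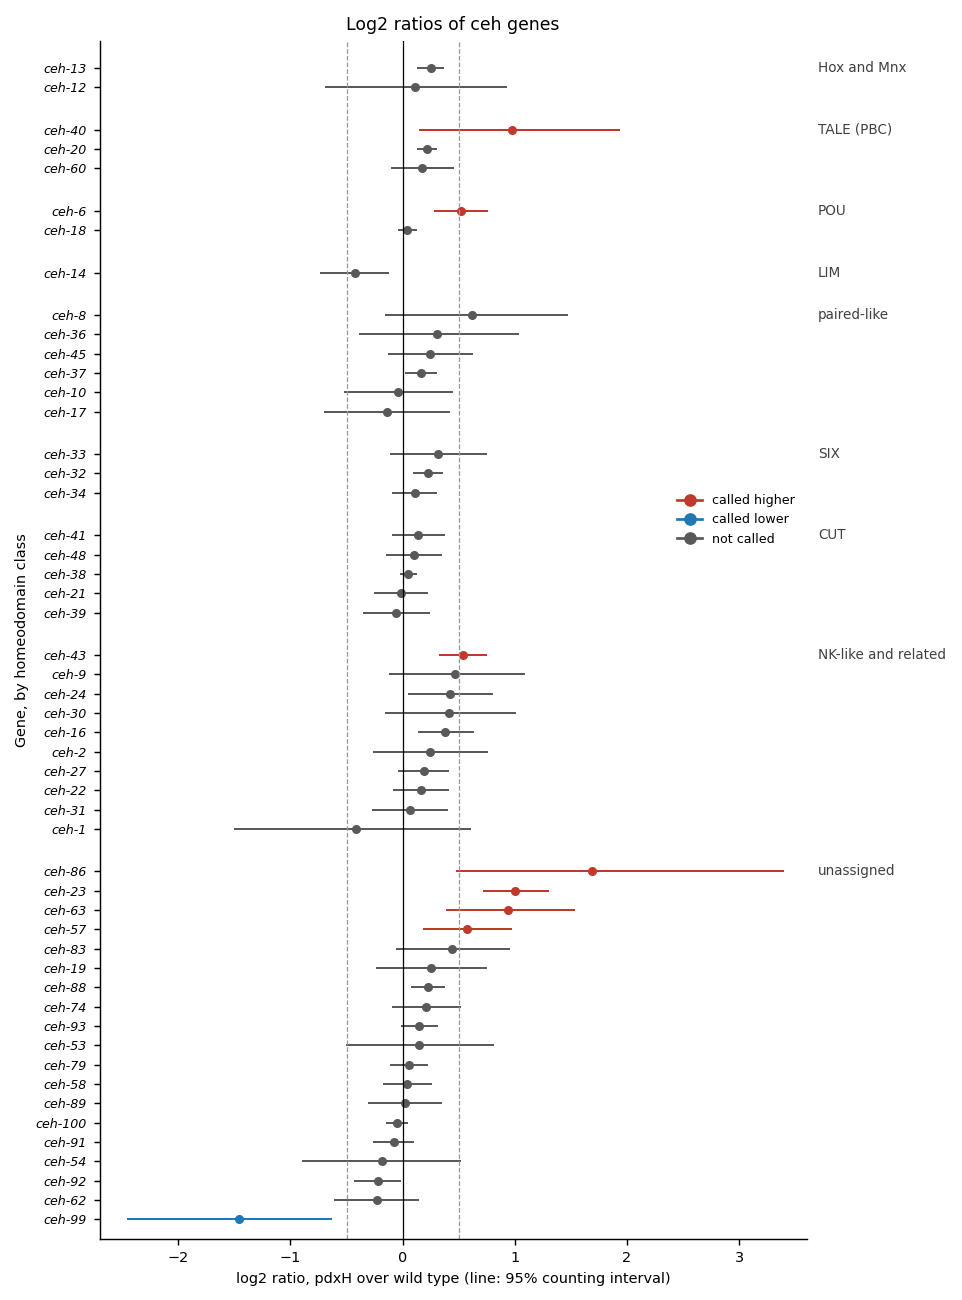
Log2 ratio, *pdxH* over wild type, of the 51 *ceh* genes with at least 20 reads, grouped by homeodomain class, each point with its 95% counting interval. Dashed lines mark 0.5 and -0.5, and 7 genes called higher (red) and 1 called lower (blue) stand among 43 that were not called (grey).

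The Hox gene *ceh-13* and the Pbx-type gene *ceh-20* had the highest levels of all *ceh* genes, and both were slightly higher on the *pdxH* diet. *ceh-13*, the worm labial gene of the anterior body, had 1564 reads with the *pdxH* mutant against 1155 with wild-type *E. coli*, a log2 ratio of 0.25 (0.14 to 0.36). *ceh-20* had 2814 reads against 2125, a log2 ratio of 0.22 (0.14 to 0.30). The intervals of both left out 0, and neither reached a size of 0.5. *ceh-60*, the third Pbx-type gene, which acts in the intestine, had 260 reads against 202, a log2 ratio of 0.18 (-0.09 to 0.45), and it overlaps *ets-4* on the opposite strand by 72 bases. *ceh-12*, the worm HB9 gene of the VB motor neurons, had 32 reads against 26, with an interval of -0.68 to 0.92.

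In the POU class the members had unlike ratios in these libraries. Beside *ceh-6*, *ceh-18*, which acts in the sheath cells of the gonad, had 3036 reads against 2593 and a log2 ratio of 0.04 (-0.04 to 0.12). The counting intervals of *ceh-6* and *ceh-18* did not overlap, but they cover no variation between cultures. With an assumed coefficient of variation between cultures of 0.2, *ceh-6* was no longer called.

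The CUT genes stayed close to an equal level. They include factors that drive genes used by all neurons. *ceh-38*, with 4021 reads on the *pdxH* diet against 3410 on the wild-type diet, was the *ceh* gene with the most reads and had a log2 ratio of 0.05 (-0.02 to 0.12). *ceh-48*, which is active in all neurons, had 319 reads against 261, a log2 ratio of 0.10 (-0.14 to 0.34). All 5 CUT genes with enough reads had ratios between -0.06 and 0.14, and each interval held 0. The entry of *cone-1*, which also holds the CUT gene *ceh-44*, had 4311 reads against 3740, and its transcripts could not be separated. The pseudogene *ceh-85* had 0 reads in both libraries.

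The 3 genes of the sine oculis class had ratios above 0. *ceh-32*, a gene of head development, had 1242 reads against 934, a log2 ratio of 0.22 (0.10 to 0.35). *ceh-34*, a selector gene of pharyngeal neurons, had 500 reads against 407, a log2 ratio of 0.11 (-0.08 to 0.30), and its relative *ceh-33* had 115 against 81, a log2 ratio of 0.31 (-0.11 to 0.75).

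The NK-like and related class had a median log2 ratio of 0.31 over the 10 members with enough reads, 9 of them above 0. Besides *ceh-43*, the interval left out 0 for *ceh-16* and *ceh-24*. *ceh-16*, the worm engrailed gene, which acts in the seam cells of the epidermis, had 355 reads with the *pdxH* mutant against 239 with wild-type *E. coli*, a log2 ratio of 0.38 (0.14 to 0.63), and it overlaps *polk-1* on the opposite strand by 57 bases. *ceh-24*, which acts in sex muscles, had 156 against 102, a log2 ratio of 0.42 (0.06 to 0.80). *ceh-22*, the Nkx2-type gene of pharyngeal muscle, had 324 against 254, a log2 ratio of 0.16 (-0.08 to 0.41). The intervals of the remaining genes named here held 0. *ceh-27* had 407 reads against 314, a log2 ratio of 0.19 (-0.03 to 0.40). *ceh-2*, the worm Emx gene, had 81 reads against 60, a log2 ratio of 0.24 (-0.25 to 0.75). *ceh-1* was the member below 0, with 16 reads against 19 and an interval of -1.49 to 0.60.

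The paired-like and LIM genes hold many selectors of sensory neurons and interneurons, and their ratios lay on both sides of 0. *ceh-14*, a LIM gene of the thermosensory neuron AFD and other neurons, was lower, with 171 reads on the *pdxH* diet against 202 on the wild-type diet, a log2 ratio of -0.43 (-0.73 to -0.13). This interval left out 0 but the size stayed under 0.5. *ceh-37*, an Otx-type gene known from the olfactory neuron AWB, had 1006 reads against 789, a log2 ratio of 0.16 (0.03 to 0.30). The related *ceh-36* of the AWC and ASE neurons had 44 reads against 31, a log2 ratio of 0.31 (-0.38 to 1.03). *ceh-17*, the Phox2-type gene of the ALA and SIA neurons, had 59 reads against 57, a log2 ratio of -0.14 (-0.69 to 0.41). *ceh-45*, the goosecoid gene, had 147 against 109, a log2 ratio of 0.24 (-0.12 to 0.61).

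The 27 genes that were not placed in a class are what the class list left over, and they held all 3 genes without a read. Among the 19 with enough reads, 4 were called higher and 1 lower, beside 5.20% and 8.83% of all genes. Their median log2 ratio was 0.15 over the 19 with enough reads. Several are abundant. *ceh-100* had 2283 reads with the *pdxH* mutant against 2075 with wild-type *E. coli*, a log2 ratio of -0.05 (-0.14 to 0.04). *ceh-88* had 992 against 745, a log2 ratio of 0.22 (0.09 to 0.36), and its exons share 809 bases with *C49C3.6* on the same strand. The genes with the next most reads in this group were not called. *ceh-93* had 777 against 615 (0.15, interval -0.01 to 0.30), and *ceh-79* had 715 against 604 (0.06, interval -0.10 to 0.21). *ceh-92* was lower by the interval, with 410 reads against 420, a log2 ratio of -0.22 (-0.42 to -0.02), while *ceh-91*, also on chromosome III, had 572 against 530 and a ratio of -0.08 (-0.25 to 0.10). *ceh-19*, which acts in the pharyngeal neuron MC, had 87 reads against 64 and a ratio of 0.25 (-0.23 to 0.74), and it overlaps the abundant *mcm-3AP* on the opposite strand by 49 bases. The other genes of the group with intervals that held 0 include the following. *ceh-62* had 123 against 127, a ratio of -0.23 (-0.60 to 0.14). *ceh-74* had 215 against 163, a ratio of 0.21 (-0.09 to 0.51), and *ceh-89* had 177 against 153, a ratio of 0.02 (-0.30 to 0.34). *ceh-53* had 48 against 38, and *ceh-54* had 37 in each library.

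Several *ceh* genes lie close together. *ceh-57* and *ceh-58* follow each other on the minus strand of chromosome II, 444 bases apart (II, 10363584-10367296 and 10367741-10369597). *ceh-57* was called higher, whereas *ceh-58* had 420 reads on the *pdxH* diet against 358 on the wild-type diet, a log2 ratio of 0.04 (-0.16 to 0.25). The counting intervals of this pair overlap. On chromosome X the CUT genes *ceh-41*, *ceh-21* and *ceh-39* form a row on the minus strand, 103 bases apart for the first pair and 1137 bases, with 1 protein-coding gene in between, for the second. Their log2 ratios were 0.14, -0.01 and -0.06, from 364 reads against 290, 327 against 290 and 207 against 189. *ceh-30*, which protects the male CEM neurons from cell death, and *ceh-31*, both of the BarH type, lie 3096 bases apart on opposite strands. *ceh-30* had 67 reads against 44 and *ceh-31* had 173 against 145, with ratios of 0.41 (-0.15 to 1.002) and 0.07 (-0.26 to 0.40). *ceh-33* and *ceh-34* are 3616 bases apart, and *ceh-36* and *ceh-37* are 10805 bases apart.

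*ceh-23* and *ceh-13* belong to the Hox cluster region of chromosome III. *ceh-13* (III, 7555660-7558041, plus strand) lies 19.03 kb from *lin-39*, the Hox gene of the middle body, and *ceh-23* (III, 7839592-7841491, plus strand) lies 22.5 kb from *egl-5*, the Hox gene of the tail, with 2 protein-coding genes in between. *lin-39* had 1141 reads with the *pdxH* mutant against 930 with wild-type *E. coli*, a log2 ratio of 0.11 (-0.02 to 0.23). *mab-5*, the Hox gene of the posterior body, had 488 against 375, a log2 ratio of 0.19 (-0.01 to 0.39), and *egl-5* had 340 against 293, a log2 ratio of 0.03 (-0.20 to 0.26). The interval of *ceh-23*, 0.725 to 1.298, lay above the intervals of the other 4 genes.

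**Figure D4:**
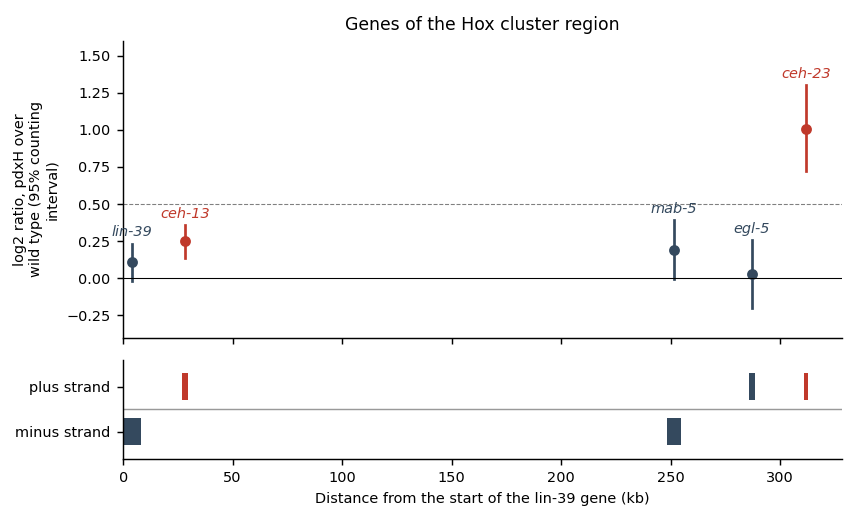
Upper panel, log2 ratio, *pdxH* over wild type, with its 95% counting interval, for *lin-39*, *ceh-13*, *mab-5*, *egl-5* and *ceh-23*. Lower panel, the genes to scale by strand, in kb from the start of *lin-39*. *ceh-23* stands at 1.005, above the dashed line at 0.5, and the other 4 genes lie between 0.03 and 0.25.

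By chromosome, the *ceh* genes with enough reads were above 0 in 6 of 7 cases on I, 5 of 8 on II, 5 of 8 on III, 4 of 4 on IV, 8 of 8 on V and 11 of 16 on X. Their medians ran from 0.05 on chromosome II to 0.24 on chromosome I, beside medians of all genes between -0.02 and 0.06 on the 6 chromosomes. X holds the most *ceh* genes, 18 of 63, and had a median of 0.10 for them and 0.06 for all its genes.

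The homeobox genes outside the *ceh* series held 1 call in each direction, beside 5.20% of all genes called higher and 8.83% called lower. Of 39 such genes, all with at least 20 reads, 27 were above 0, and the median log2 ratio was 0.10. Their summed reads were 29482 with the *pdxH* mutant against 25443 with wild-type *E. coli*. Scaled to the library totals, this was a log2 ratio of 0.025 (0.0004 to 0.049), beside 0.12 for the *ceh* genes. *unc-86*, a POU gene that specifies touch and other neurons, was called higher just past the limit with 507 reads against 314, a log2 ratio of 0.50 (0.30 to 0.71). *hmbx-1* was called lower with 725 against 1082, a log2 ratio of -0.76 (-0.90 to -0.63). The genes that encode further Hox cofactors had ratios near 0. *unc-62*, the worm Meis gene, had 4750 reads against 4194 and a log2 ratio of -0.01 (-0.07 to 0.05), and *psa-3*, a second Meis-type gene, had 269 against 249 and a ratio of -0.08 (-0.33 to 0.18).

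Marker genes of tissues in which *ceh* genes act had medians on both sides of 0, and their part in the *ceh* ratios was not tested. Of 19 genes listed here as pan-neuronal, 18 were above 0 and none was called, and their median log2 ratio was 0.19. Whether each of the 19 is active in every neuron was not tested. Their summed level was 1311 RPKM with the *pdxH* mutant and 1109 with wild-type *E. coli*, and none of the 19 was without reads. The largest ratios among them were those of *egl-3*, a neuropeptide processing enzyme, with 40258 reads against 26734 (0.40), and *ida-1*, a dense-core vesicle protein, with 33458 against 22727 (0.37). Both genes carry much of the summed level. *egl-3* had 338 RPKM with the *pdxH* mutant against 256 with wild-type *E. coli*, and *ida-1* had 278 against 215. The median of the *ceh* genes, 0.16, was close to that of the pan-neuronal list. The log2 ratios of the summed reads lay further apart, 0.12 (0.10 to 0.15) and 0.26 (0.25 to 0.28). The neuronal sum is weighted by *egl-3* and *ida-1*. Measured against the neuronal median, a comparison chosen after the data were seen, 3 *ceh* genes were called higher, *ceh-23*, *ceh-63* and *ceh-86*, and 2 lower, *ceh-14* and *ceh-99*. Over all genes this scaling called 306 higher and 2237 lower, in place of 820 and 1393.

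Other tissue lists lay lower. The 6 pharyngeal muscle genes had a median of 0.02, the 4 glial genes found in the table -0.13, the 8 body wall muscle genes -0.19 and the 9 intestinal genes -0.24. Of these lists only the intestinal one held calls, 2 lower (*act-5* at -0.50 and *cpr-1* at -0.79), beside 8.83% of all genes. Summed levels on the *pdxH* and wild-type diets were 1333 and 1366 RPKM for pharyngeal muscle, 55.4 and 58.3 for glia, 2914 and 3228 for body wall muscle and 3072 and 3812 for intestine. The 9 germline genes with enough reads were all below 0, with a median of -0.61. Of these, 6 were called lower, beside 8.83% of all genes. The remaining gene of the list, *nos-2*, went the other way with 13 reads against 2, too few for a call. Summed levels over the 10 genes of the list were 105 RPKM with the *pdxH* mutant and 153 with wild-type *E. coli*. The 7 epidermal and seam genes found had a median of 0.07, and 4 of them were above 0, among them *elt-1* and *elt-3* at 0.17 each. The list also held *dpy-7*, a cuticle collagen, at -1.19 and *grd-10* at -0.67, both called lower, beside 8.83% of all genes. The summed levels of the epidermal and seam genes were 218 and 310 RPKM, with the *pdxH* library first. *dpy-7*, with 51.6 and 117.7 RPKM, and *grd-10*, with 59.5 and 94.4, account for most of this gap. No listed gene found in the table was without reads.

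**Figure D5:**
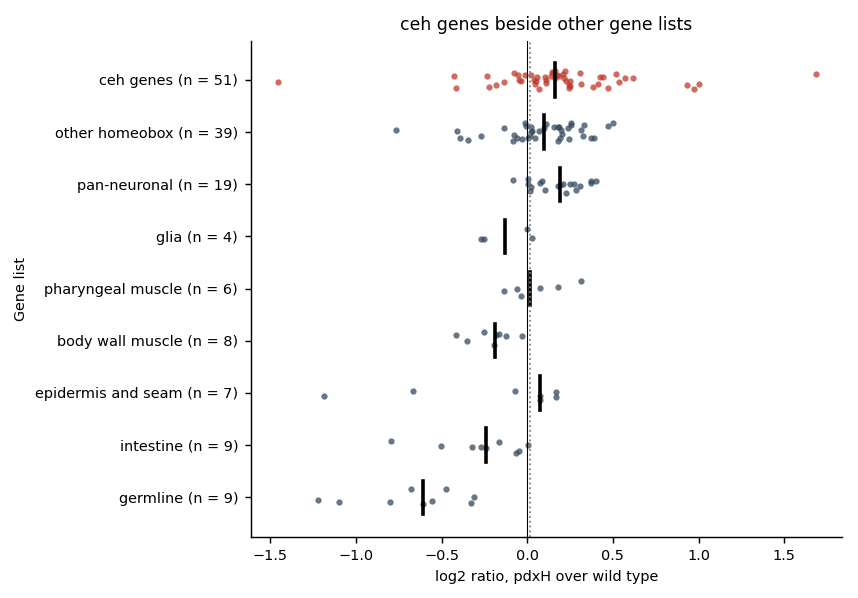
Log2 ratio, *pdxH* over wild type, of single genes (points) with the median of each list (black bar), for the *ceh* genes and 8 other lists, each restricted to genes with at least 20 reads. The dotted line marks the median of all genes, 0.01, and the *ceh* genes (0.16), other homeobox genes (0.10) and pan-neuronal genes (0.19) lie to its right.

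Counts of genes that overlap others carry a further limit, since the strand setting of the read counting is not given in the sources used here. That setting does not matter for *ceh-8*, *ceh-27*, *ceh-63* and *ceh-88*, which overlap a gene on the same strand. The partners of *ceh-8*, *ceh-20*, *ceh-28*, *ceh-30* and *ceh-32* had 0 reads in either library. Those of *ceh-22*, *ceh-27*, *ceh-34* and *ceh-37* had at most 4 in either library. The remaining partners had more, among them *ets-4*, the partner of *ceh-60*, with 3925 against 3996. An effect of the overlaps on the ratios was not tested. Exons of 17 *ceh* genes overlap those of another annotated gene, and without these the median log2 ratio was 0.10 over 36 genes, with 5 called higher and 1 lower. With an assumed coefficient of variation between cultures of 0.2 added to the counting error, 2 genes stayed called higher, *ceh-23* and *ceh-86*, and 1 lower, *ceh-99*, while 0.98% of all genes were called higher and 4.79% lower.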

How the data were processed

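Reads were trimmed (Trimmomatic), aligned (STAR 2.5.3a) and counted per gene (HTSeq) by the authors, who then ran GFOLD 1.1.4 on the counts. Per the submitters' processing notes the build was ce11. The deposited signal values are reads scaled by library total, with a length of 20 bases set for every gene, so they carry no length correction. The deposited fold change, GFOLD and error rate columns hold the authors' own comparison and were not used.

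Reads were recovered by dividing by the value of 1 read, 1.08 (*pdxH*) and 1.23 (wild type). Of values up to 20 reads 100% were within 0.02 of a whole number, and of all values above 0 97.6% and 97.8%. Of the 46904 identifiers, 44017 had a symbol and 46817 were in the Ensembl annotation of WBcel235 (the ce11 assembly), from which exon lengths were taken. Intervals are exact Clopper-Pearson intervals of the read split, in Python 3.11.15 with SciPy 1.17.1. TMM factors came from edgeR 4.0.16. No sample was left out and all columns of sample values were used. An exact binomial test on the reads, added after the data were seen, compares these libraries and not the diets. At an adjusted p of 0.05 and the same size it called 712 genes higher and 1333 lower.

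The members and gene lists were chosen with earlier results of these data known. Named genes were those called, the 10 highest levels, the member with the most reads in each class, neighbouring or overlapping genes, and among the other homeobox genes those called and *lin-39*, *mab-5*, *unc-62* and *psa-3*. All further genes named with values, such as *ttx-3*, *egl-5*, *egl-3* and *dpy-7*, were chosen after their values were seen. Per the study's methods, the worms were taken at a matched stage. The study also reports that larvae on *L. plantarum* arrested early with the *pdxH* mutant and grew with wild-type *E. coli*. Whether the stage of the worms differed between the libraries was not tested. With a single library for either diet, stage and diet cannot be told apart. The call rule was tested on simulated reads that held counting error only. That test cannot show how the rule behaves under variation between cultures.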

Additional observations from a re-analysis of the deposited data

How the results depend on the processing

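No paired analysis was possible because there was a single library for either diet, and none could be left out. Of 7 *ceh* genes called higher and 1 lower, a size of 1 kept 2 higher and 1 lower, and an assumed coefficient of variation of 0.2 kept the same 2 and 1. At 0.3, added later, 0 were called in either direction. Without the interval, *ceh-8* was called higher too. With at least 100 reads, 5 were higher and 0 lower. Centring on the pan-neuronal median, also added later, left 3 higher and 2 lower and turned the *ceh* median to -0.0296, against 0.16. Without overlapping genes the *ceh* median was 0.10. The pan-neuronal median of 0.19 was 0.178 with centring on all genes and 0.177 with TMM scaling. The other alternatives, pseudocounts of 0.1 and 5, any gene with 1 read, a coefficient of variation of 0.1, and the exact binomial test, called the same 7 and 1 genes. Centring on all genes and TMM scaling did so too. The share of lower calls among all genes did not move by over 10 percentage points with either. Over all genes, 820 were called higher and 1393 lower. A size of 1 gave 188 and 644, no interval 1251 and 1682, a coefficient of variation of 0.2 gave 155 and 756 and of 0.3 gave 28 and 348, and pan-neuronal centring 306 and 2237. Depth limits the calls of *ceh-40*, *ceh-86* and *ceh-99*, which had 56, 30 and 56 reads.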
